A study of Mus musculus with 24 samples.

Results

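The clock output transcription factors of mouse liver were examined: Dbp, Tef and Hlf, which make up the PAR bZIP family, their repressor Nfil3, and the Dec genes Bhlhe40 and Bhlhe41. They were taken as every probe whose transcript identifier maps to one of these 6 symbols, a rule that uses no measured value. The 6 symbols themselves were chosen with earlier results of these data known. The rule found 10 of 41174 non-control probes and 6 of 16149 genes. There was 1 probe each for Dbp, Hlf and Bhlhe40, with 2 each for Nfil3 and Bhlhe41, and 3 for Tef.

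In liver, the core clock pair made of CLOCK and BMAL1 (the product of Arntl) drives E-box genes in a daily rhythm, and the PER, CRY and REV-ERB proteins hold that drive back. Dbp, Tef and Hlf are outputs of this loop: they bind D-box elements and activate genes of drug, bile acid and heme metabolism, while NFIL3 binds the same elements and represses them. Nfil3 is itself held down by REV-ERB (Nr1d1) through ROR elements, and the Dec proteins repress through E-boxes. Because these transcripts cycle, their level depends on the hour of collection, which is not given in the sources used here. Neither is the time between the last binge and collection, nor the age of the mice.

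The series holds 24 samples of total liver RNA from male C57BL/6N mice in 6 diet groups. Pair-fed controls, which receive a diet without ethanol matched in amount to that of the ethanol-fed mice, were taken at 10 days (n = 3) and at 8 weeks (n = 4). Ethanol-fed groups had 10 days of diet and a binge of ethanol at 5 g/kg (the 10-day binge group, n = 3), 8 weeks of diet alone (n = 5), 8 weeks and a binge at 5 g/kg (the single-binge group, n = 5), or 8 weeks with such binges 2 times per week (the multiple-binge group, n = 4). No group had 10 days of ethanol without a binge, so diet and binge cannot be told apart in the 10-day comparison. The labels do not state that the samples of a group came from separate animals, so p-values measure the spread between these samples, which may be technical. Liver RNA was labelled with Cy5 and hybridised on a 2-colour Agilent array against a Cy3-labelled reference, named as assorted mouse total RNA, in the same dye orientation on all 24 arrays. Values are log2 ratios of liver over reference, so 1 unit is a factor of 2.00, and a gene was called where limma's Benjamini-Hochberg adjusted p over all genes tested was under 0.05.

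The arrays lay on 11 slides read in 3 scans. The pair-fed, ethanol and single-binge groups of 8 weeks shared scan 1, the 10-day groups shared scan 2, and the multiple-binge arrays were alone in scan 3. Median raw intensity ranged from 95.5 to 247 in Cy5 and from 161.5 to 505 in Cy3, and no pair of arrays held identical values. The reference should be the same on every array, but the Cy3 signals of scan 3 stood apart: their median correlation across genes was 0.968 within scan 3 and 0.915 with scan 1, against 0.985 within scan 1 and 0.976 between scans 1 and 2. In Cy3 alone 51.5% of genes differed between the multiple-binge and the pair-fed 8-week arrays, against 0% between the ethanol and pair-fed 8-week arrays. Between the pair-fed arrays of scans 1 and 2 the share was 4.15%. Group and scan cannot be told apart for the multiple-binge arrays. Members' differences that rest on them, where called in the ratio or in the liver channel alone, are given with both. They are those of the probe that stands for the gene.

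Promoter windows are shown because Dbp and Tef moved together and Nfil3 the other way. RefSeq (GRCm38.p6) gave 6 windows of 250 bases before a transcript start for 5 of the 6 members. They were searched on both strands for the D-box TTANGTAA, the E-box CACGTG, the E-prime box CACGTT, and the ROR elements TAGGTCA and TGGGTCA. The E-box was found in both windows of Tef, 127 and 138 bases before the start, and in that of Bhlhe41, 153 bases before. A ROR element was found on the opposite strand of the Nfil3 window, 12 bases before the start, where it reads TGACCTA. The Nfil3 window and the second window of Tef lie wholly inside their annotated genes. The windows of Dbp and Hlf held none of these strings, which says only that these letters are not in those windows. Of 32851 windows of this length in the table, 6.02% held the E-box, 2.23% the first ROR element and 2.06% the D-box. A match is a description of letters and was not tied to any measurement here. The 30 bases around each match, 5′ to 3′ on the gene's strand with the match in capitals, are as follows.
Tef, first start, chr15:81802534-81802563, plus strand: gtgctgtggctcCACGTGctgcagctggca
Tef, second start, chr15:81811264-81811293, plus strand: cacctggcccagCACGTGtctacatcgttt
Bhlhe41, chr6:145865556-145865585, minus strand: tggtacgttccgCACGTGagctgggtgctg
Nfil3, chr13:52981040-52981069, minus strand: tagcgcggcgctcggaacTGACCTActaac

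The longer stretches set the window of Tef that holds an E-box beside that of Dbp, the member with the largest differences, in which no searched string was found. The Dbp window overlaps the annotated gene, so only its 103 bases before the gene are printed.
Tef, first start, chr15:81802423-81802672, plus strand: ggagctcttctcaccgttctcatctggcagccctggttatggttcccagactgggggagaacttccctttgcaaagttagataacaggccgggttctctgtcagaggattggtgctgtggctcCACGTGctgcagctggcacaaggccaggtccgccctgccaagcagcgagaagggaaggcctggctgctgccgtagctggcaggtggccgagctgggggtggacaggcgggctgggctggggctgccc
Dbp, chr7:45704997-45705099, plus strand: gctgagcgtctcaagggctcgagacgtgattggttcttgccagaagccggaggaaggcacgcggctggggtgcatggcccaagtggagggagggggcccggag

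The question the main comparisons address is what a binge of ethanol adds to weeks of ethanol diet. After a single binge on top of 8 weeks of diet, the 3 PAR bZIP activators fell and their repressor Nfil3 rose, both against pair-fed mice and against mice on the same diet without a binge. Against pair-fed mice 4 of 6 members were called, where 16.3% of 15722 genes were. Hlf was among them at an adjusted p of 0.0458. Its call was lost in 6 of 11 alternative settings and in 6 of 9 fits that left out an array. Against the 8-week ethanol group 4 of 5 tested members were called, where 16.4% of 15839 genes were; Bhlhe40 was not tested there, because it was measured on 1 array of the ethanol group. These comparisons share the single-binge arrays. After 10 days of ethanol and a binge, Dbp and Tef fell and Bhlhe40 rose, 3 of 6 members against 7.22% of 15674 genes. For 8 weeks of ethanol without a binge 0 of 5 tested members were called at a background of 0.153%. Dbp and Tef were lower on every ethanol array than on every pair-fed array, for Tef by its most intense probe alone. Groups did not overlap in either direction for 4.75% of all genes in that comparison. By limma's unadjusted p, 2 of the 5 were under 0.05 there, Dbp (0.000764) and Tef (0.00995), as were 7.27% of all genes. The plot of members by group shows the values behind these calls.

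**Figure D1:**
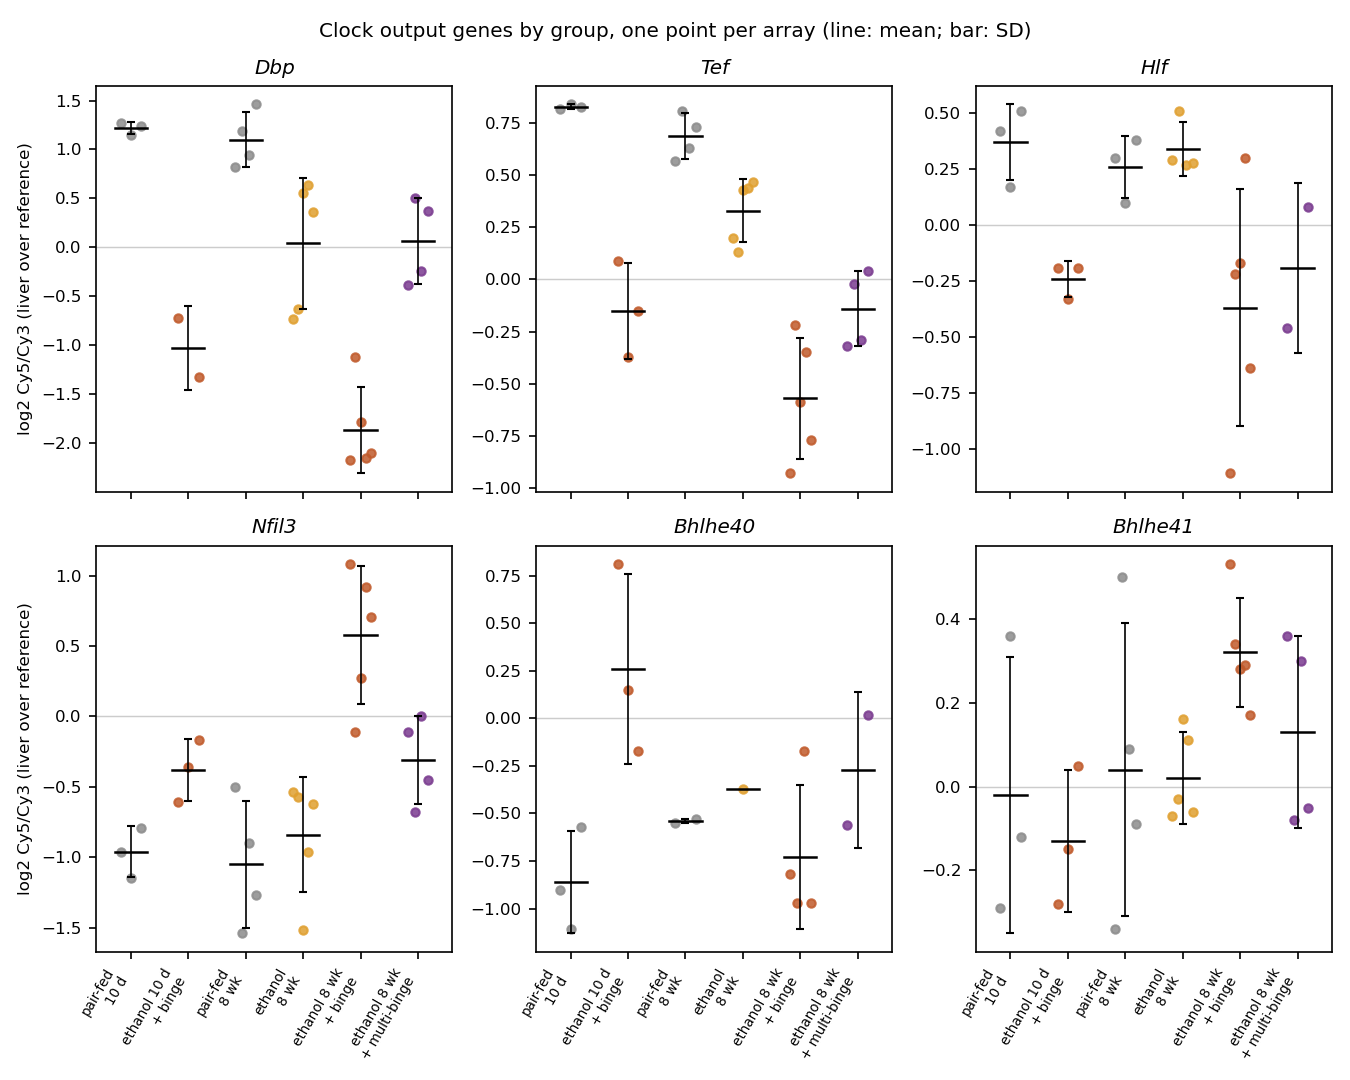
Log2 Cy5/Cy3 of each member (y axis) in the 6 diet groups (x axis), with 1 point per array, a line at the mean and a bar of 1 SD; grey points are pair-fed groups, yellow the ethanol diet alone, orange a single binge and purple multiple binges. Dbp lies between 0.82 and 1.46 in pair-fed mice of 8 weeks and between -2.17 and -1.12 after a single binge, while Nfil3 lies higher in the single-binge group than in the other 8-week groups of the same scan.

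Dbp, a D-box activator whose transcript swings widely over the day in liver, varied most among the members. Its log2 ratio was 1.27, 1.15 and 1.24 in the pair-fed 10-day arrays and 0.82, 1.19, 0.94 and 1.46 in the pair-fed 8-week arrays. In the single-binge arrays it was -2.17, -1.12, -1.79, -2.15 and -2.10, and every one of these lay below every array of the pair-fed and ethanol groups of 8 weeks. The mean was 1.10 ± 0.28 (SD, n = 4) in pair-fed mice and -1.87 ± 0.44 (n = 5) after the binge. Dbp therefore fell by 2.97 ± 0.27 (SE), a level 7.83-fold lower (adjusted p = 4.11e-07). The Cy5 channel alone gave -3.07 ± 0.32 (adjusted p = 2.25e-06), and the Cy3 reference differed by -0.10. In Cy5 alone 8.97% of genes were called in this comparison, and groups did not overlap in the ratio for 14.3%. On the 4 slides with both groups Dbp was lower on 4, by -3.56 to -2.31.

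Mice on 8 weeks of ethanol without a binge lay between these groups in Dbp. Their ratios were -0.73, -0.63, 0.55, 0.64 and 0.36, all below every pair-fed array of that age and above every single-binge array, with replicates 1 and 2 below the other 3. The mean of 0.04 ± 0.67 (n = 5) differed from pair-fed by -1.07 ± 0.27, which was not called (adjusted p = 0.148). Cy5 alone gave -1.17 (adjusted p = 0.296), where 0.0893% of genes were called. Dbp was lower on 4 of 4 shared slides, by -1.82 to -0.39. Groups did not overlap in this comparison for 4.75% of genes in either direction. From the ethanol diet to the diet with a binge Dbp fell by 1.90 ± 0.26, 3.74-fold (adjusted p = 2.17e-05). In that comparison groups did not overlap for 12.3% of genes, and Cy5 alone, which gave -1.90 for Dbp, called 8.73%. It was lower on 5 of 5 shared slides, by only -0.49 on slide 2, which held the ethanol array at -0.63 and the single-binge array at -1.12.

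In the 10-day binge group Dbp was -0.72 and -1.33, and the spot of replicate 2 was marked by the scanner software and left out. It fell by 2.25 ± 0.37 from the pair-fed 10-day group, 4.74-fold (adjusted p = 0.000486), with 2 arrays against 3. Cy5 alone gave -2.36 (adjusted p = 0.00265), where 2.73% of genes were called. With the marked spot kept, at -0.84, the difference was -2.18 ± 0.33 (adjusted p = 0.000114). On the slide that measured Dbp in both groups the difference was -2.57. In the order of mean ratios, pair-fed 10 days (1.22) and pair-fed 8 weeks (1.10) were not told apart (difference -0.11 ± 0.31, adjusted p = 0.906), and the 10-day binge and single-binge groups had overlapping ranges.

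Tef, the second activator, differed in the same direction as Dbp and by less. Its most intense probe (A_52_P485573) read 0.82, 0.84 and 0.83 in the pair-fed 10-day arrays and 0.57, 0.81, 0.63 and 0.73 in the pair-fed 8-week arrays. It read 0.20, 0.13, 0.43, 0.44 and 0.47 on ethanol for 8 weeks, and -0.93, -0.22, -0.59, -0.35 and -0.77 after the single binge. These 3 groups of 8 weeks did not overlap. Over all genes, groups did not overlap for 4.75% (ethanol against pair-fed), 12.3% (single binge against ethanol) and 14.3% (single binge against pair-fed). Tef fell by 1.26 ± 0.13 after the single binge against pair-fed, 2.39-fold (adjusted p = 5.56e-07), and by 0.91 ± 0.12 against ethanol alone (adjusted p = 1.12e-05). The Cy5 channel alone gave -1.19 and -0.89, and the slides that held both groups were all lower, 4 of 4 and 5 of 5. The difference for ethanol alone was -0.35 ± 0.13 and was not called (adjusted p = 0.439). In the 10-day binge group the ratios were 0.09, -0.37 and -0.15, a fall of 0.98 ± 0.15 (adjusted p = 0.000215).

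The other probes of Tef gave the same calls for the single binge. Against pair-fed mice A_51_P450561 fell by 1.01 ± 0.19 (adjusted p over all probes = 0.00079) and A_52_P173309 fell by 0.63 ± 0.17 (0.0152), and in the 10-day comparison by 1.06 ± 0.23 and 0.76 ± 0.21. The single-binge and pair-fed ranges of A_52_P173309 overlapped (-0.93 to 0.14 and -0.18 to 0.36). For 8 weeks of ethanol alone the 2 probes differed by -0.11 ± 0.19 and -0.04 ± 0.17, and both overlapped between the ethanol and pair-fed groups. Both also overlapped between the ethanol and single-binge groups. The ranges were -0.52 to 0.50 and -1.58 to -0.40 for A_51_P450561, and -0.24 to 0.48 and -0.93 to 0.14 for A_52_P173309. All 3 probes carry the same transcript identifier and are not replicates of the condition.

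Hlf, the third activator, had smaller and more scattered differences. It read 0.42, 0.17 and 0.51 in pair-fed 10-day arrays, 0.30, 0.10 and 0.38 in the 3 pair-fed 8-week arrays that measured it, and 0.29, 0.51, 0.27 and 0.28 in 4 arrays of 8 weeks of ethanol. After the single binge it read -1.11, -0.22, -0.17, 0.30 and -0.64, so replicate 4 lay among the controls and replicate 1 far below them. Hlf fell by 0.71 ± 0.19 against ethanol alone (adjusted p = 0.0142) and by 0.63 ± 0.21 against pair-fed (adjusted p = 0.0458). The first call was lost with median centring in place of loess (-0.65, adjusted p = 0.176). The second call was lost without any 1 of the 4 pair-fed arrays or without single-binge replicate 1 or 5, where values ran from -0.71 to -0.44 and adjusted p from 0.0509 to 0.154. It was also lost with slide as a block, at -0.43 (adjusted p = 0.128), and in Cy5 alone, at -0.54 (adjusted p = 0.127). In the 10-day binge group the ratios of -0.19, -0.33 and -0.19 lay below all pair-fed 10-day arrays, and groups did not overlap there for 26.4% of genes. The difference of -0.60 ± 0.23 was not called (adjusted p = 0.137).

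Nfil3, which competes with the activators for D-boxes, went the other way. Its most intense probe (A_51_P111492) read -0.50, -1.54, -0.90 and -1.27 in pair-fed mice of 8 weeks and -0.54, -0.57, -1.52, -0.96 and -0.62 on ethanol alone, in overlapping ranges. After the single binge it read 1.08, -0.11, 0.27, 0.92 and 0.71, above every array of both groups. Groups did not overlap for 14.3% of genes against pair-fed and for 12.3% against ethanol alone. Nfil3 rose by 1.63 ± 0.23 against pair-fed, 3.10-fold (adjusted p = 3.81e-05), and by 1.42 ± 0.22 against ethanol alone, 2.68-fold (adjusted p = 8.12e-05). It was higher on 4 of 4 and 5 of 5 shared slides, and Cy5 alone gave 1.70 and 1.39. The second probe (A_52_P500027) rose by 0.92 ± 0.14 (adjusted p over all probes = 0.000102) and by 0.69 ± 0.13 (0.000881), so both probes were called in the same direction, with different sizes. The Cy3 signal of the first probe was lowest in scan 1 on the 3 arrays of slide 5, at 9.38, 9.70 and 9.67, and with slide as a block the differences were 1.53 and 1.42.

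For 8 weeks of ethanol alone Nfil3 differed by 0.21 ± 0.23 (adjusted p = 0.939). In the 10-day arrays it read -0.96, -1.15 and -0.79 in pair-fed mice and -0.61, -0.36 and -0.17 after ethanol and a binge. The groups did not overlap, as for 26.4% of genes in that comparison, but the difference of 0.58 ± 0.29 was not called (adjusted p = 0.259) and the second probe gave 0.14 ± 0.17. The difference between the 2 binge effects, 8 weeks minus 10 days, was 1.05 ± 0.37 and was not called (adjusted p = 0.137).

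Within the single-binge group, replicate 2 had the highest Dbp (-1.12), the highest Tef (-0.22) and the lowest Nfil3 (-0.11) of the 5 arrays. Within the ethanol group replicates 1 and 2 had the lowest Dbp (-0.73 and -0.63) and the lowest Tef (0.20 and 0.13), and their Nfil3 of -0.54 and -0.57 was the highest of that group. Each of these is a single array.

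Bhlhe40, an E-box repressor that also responds to feeding and stress signals, rose in the 10-day comparison. It read -0.90, -1.11 and -0.57 in pair-fed mice and 0.81, 0.15 and -0.17 after ethanol and a binge. The groups did not overlap, as for 26.4% of genes in that comparison. The rise of 1.13 ± 0.25, 2.18-fold, was called (adjusted p = 0.0141), and Cy5 alone gave 1.14 (adjusted p = 0.0455). The call was lost without pair-fed replicate 1 (1.11, adjusted p = 0.0577) or 2 (1.00, adjusted p = 0.066), and with slide as a block (0.83, adjusted p = 0.11). The 2 slides with both groups gave 1.27 and 0.40.

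At 8 weeks the Bhlhe40 spot was often marked, and 15 of 24 arrays measured it. The unmarked spots read -0.55 and -0.53 in pair-fed mice, -0.37 on ethanol alone, and -0.82, -0.97, -0.17 and -0.97 after the single binge. The single-binge group differed from pair-fed by -0.19 ± 0.27 (adjusted p = 0.716). The binge effect at 8 weeks minus that at 10 days was -1.32 ± 0.37 and was not called (adjusted p = 0.0732). It was called with marked spots kept (-1.57 ± 0.35, adjusted p = 0.00972), without 10-day binge replicate 3 (-1.53, adjusted p = 0.0423) and without single-binge replicate 4 (-1.50, adjusted p = 0.0191). In this comparison of the 2 binge effects 0 of 6 members were called, where 3.35% of 15439 genes were, and the other members differed by -0.72 (Dbp), -0.28 (Tef), -0.02 (Hlf) and 0.39 (Bhlhe41). Their standard errors ran from 0.20 to 0.46. By limma's unadjusted p, 2 of the 6 were under 0.05 (Nfil3, 0.0094, and Bhlhe40, 0.00311), as were 16.1% of all genes.

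Bhlhe41, the second Dec gene, did not pass the test in any comparison of the ratio. Its brighter probe read -0.34, 0.50, 0.09 and -0.09 in pair-fed mice of 8 weeks, between -0.07 and 0.16 on ethanol alone, and between 0.17 and 0.53 after the single binge. The single-binge arrays lay above every ethanol array, with a difference of 0.30 ± 0.13 (adjusted p = 0.145). Groups did not overlap in that comparison for 12.3% of genes. The single-binge arrays overlapped the pair-fed arrays (0.28 ± 0.14, adjusted p = 0.207). Without pair-fed replicate 2 the difference from pair-fed was 0.44 (adjusted p = 0.035). In the 10-day groups the difference was -0.11 ± 0.17 (adjusted p = 0.817). The second probe cleared the scanner's background limit in Cy5 on 15 of 24 arrays and gave 0.17 ± 0.10 for the single binge against ethanol alone.

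**Figure D2:**
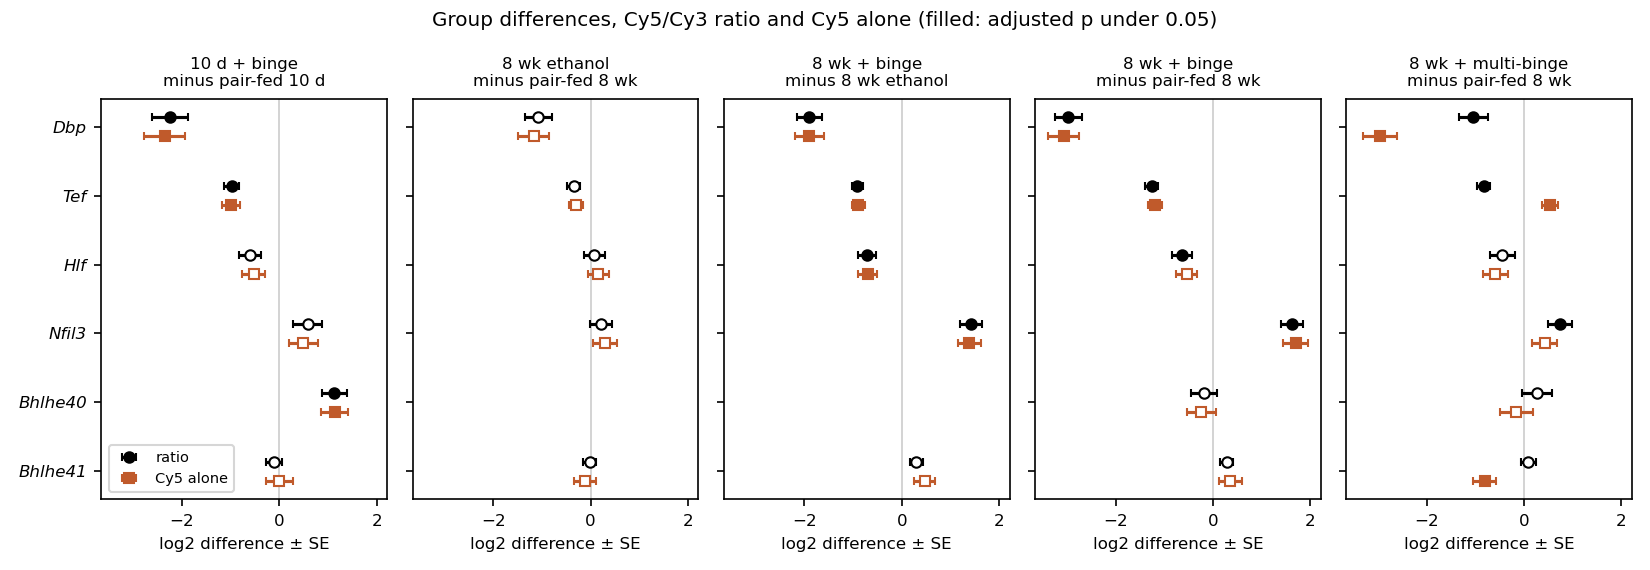
Log2 difference between groups with its standard error (x axis) for each member (y axis), in 5 comparisons; black circles are the Cy5/Cy3 ratio, orange squares Cy5 alone, and filled symbols have an adjusted p under 0.05. Ratio and Cy5 alone lie close in the first 4 comparisons (Dbp -2.97 and -3.07 for the single binge against pair-fed), and apart for multiple binges (Dbp -1.04 and -2.96, Tef -0.83 and 0.53).

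In the multiple-binge group the ratio and the liver channel gave different answers. By the ratio, Dbp and Tef fell and Nfil3 rose against pair-fed mice of 8 weeks, 3 of 6 members where 20.5% of 15387 genes were called. Dbp read -0.39, 0.50, -0.24 and 0.37, a fall of 1.04 ± 0.29 (adjusted p = 0.0138). Its Cy5 signal alone was 9.17, 9.99, 9.45 and 9.78, against 12.31, 12.52, 12.34 and 13.05 in pair-fed mice, a difference of -2.96 ± 0.34 (adjusted p = 2.59e-07). In Cy5 alone 50.1% of genes were called in this comparison. The Dbp signal of the reference was 9.56, 9.49, 9.68 and 9.41 on these arrays and between 10.73 and 11.68 on all others, and it differed by -1.92 ± 0.13 (adjusted p = 1.13e-10). The ratio and Cy5 alone thus gave the same direction for Dbp and different sizes.

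For Tef the ratio and Cy5 alone differed in direction. The ratio of the most intense probe fell by 0.83 ± 0.13 (adjusted p = 0.000248), with values of -0.32, -0.02, -0.29 and 0.04. Its Cy5 signal alone was 0.53 ± 0.16 higher than in pair-fed mice (adjusted p = 0.00704), and its Cy3 signal 1.36 ± 0.11 higher. The second Tef probe had a lower Cy3 signal on these arrays, 8.48 to 8.81 against 9.35 to 9.87 on the others, so 2 probes of 1 gene shifted in opposite directions in the reference. The 2 other probes gave ratios that differed by -0.18 ± 0.20 and -0.19 ± 0.18 and were not called (adjusted p over all probes = 0.569 and 0.5).

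**Figure D3:**
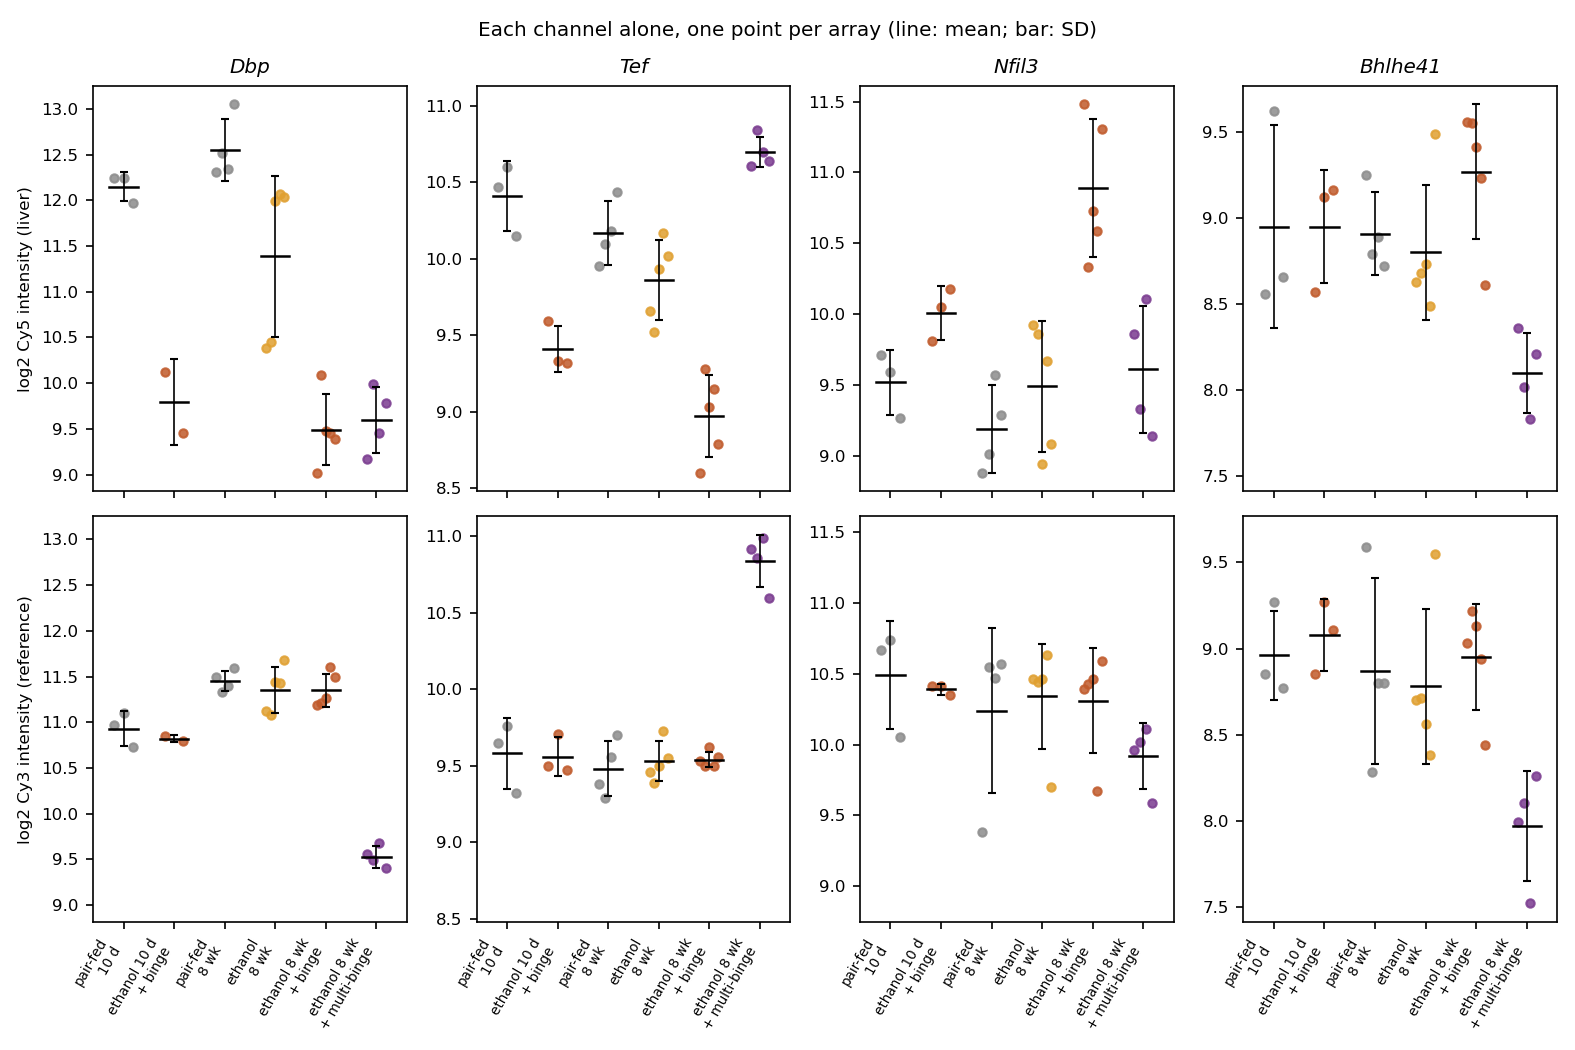
Log2 intensity of the liver channel Cy5 (upper row) and of the reference channel Cy3 (lower row) for Dbp, Tef, Nfil3 and Bhlhe41 in the 6 groups, with 1 point per array, a line at the mean and a bar of 1 SD. In the reference row the multiple-binge arrays sit apart from all other groups for Dbp (9.41 to 9.68 against 10.73 to 11.68) and Tef (10.60 to 10.99 against 9.29 to 9.76).

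Nfil3 read -0.11, -0.68, 0.00 and -0.45 in the multiple-binge arrays, 0.74 ± 0.25 above pair-fed (adjusted p = 0.0357). The call was lost without pair-fed replicate 2, 3 or 4 or multiple-binge replicate 1, 3 or 4, where values ran from 0.58 to 0.79 and adjusted p from 0.0512 to 0.14. Cy5 alone gave 0.42 ± 0.26 (adjusted p = 0.185), Cy3 differed by -0.32, and the second probe 0.11 ± 0.15. Hlf was measured on 2 multiple-binge arrays, at -0.46 and 0.08, with a difference of -0.45 ± 0.26 (adjusted p = 0.236), -0.59 in Cy5 alone (adjusted p = 0.07) and -0.14 in Cy3. Bhlhe41 differed by 0.09 ± 0.15 in the ratio and by -0.81 ± 0.24 in Cy5 alone (adjusted p = 0.0079), with a Cy3 difference of -0.90 ± 0.25. Bhlhe40 differed by 0.27 ± 0.31 in the ratio, by -0.16 ± 0.34 in Cy5 and by -0.43 in Cy3.

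Against the single-binge group, 3 of 6 members were called at a background of 29.4% of 15544 genes: Dbp 1.93 ± 0.27 higher, Tef 0.43 ± 0.13 higher and Nfil3 0.89 ± 0.23 lower (adjusted p = 4.6e-05, 0.0132 and 0.00682). In Cy5 alone Dbp differed by 0.11 ± 0.32 and was not called (adjusted p = 0.798), and by -1.82 ± 0.12 in Cy3. Cy5 alone called 52.2% of genes there and Cy3 alone 51.6%. Nfil3 was called in Cy5 alone, at -1.28 ± 0.25 (adjusted p = 0.000143), and both Nfil3 probes were called in the ratio. Tef was 1.73 ± 0.15 higher in Cy5 alone (adjusted p = 4.11e-09) and 1.30 ± 0.10 higher in Cy3. Its call in the ratio was lost with median centring in place of loess (0.17, adjusted p = 0.482) and without multiple-binge replicate 4 (0.36, adjusted p = 0.0613). Against the 8-week ethanol group 1 of 5 tested members was called at a background of 24.9% of 15475 genes: Tef, -0.48 ± 0.13 in the ratio (adjusted p = 0.00779) and 0.84 ± 0.15 in Cy5 alone, which called 52.6% of genes, as Cy3 alone did 51.5%. Dbp differed there by 0.02 ± 0.27 in the ratio, with either sign when 1 array was left out (-0.17 to 0.18), and by -1.79 ± 0.32 in Cy5 alone (adjusted p = 6.82e-05). Bhlhe41 was called in Cy5 alone against the single binge, at -1.17 ± 0.23 (adjusted p = 0.000183), with -0.19 ± 0.14 in the ratio. Against ethanol alone it gave -0.70 ± 0.23 in Cy5 (adjusted p = 0.0137) and 0.11 ± 0.14 in the ratio. Hlf gave -0.75 ± 0.25 there in Cy5 (adjusted p = 0.0169) and -0.53 ± 0.25 in the ratio. The part of the scan in these values cannot be told apart from that of the group.

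**Figure D4:**
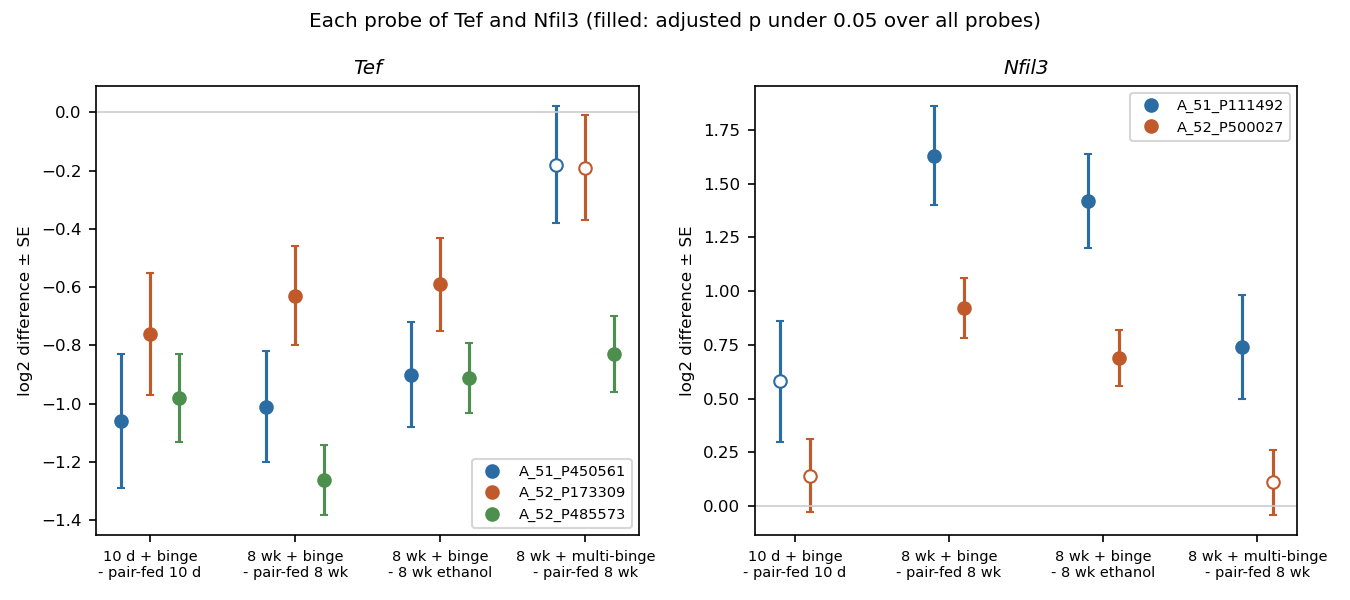
Log2 difference of each probe of Tef (left) and Nfil3 (right) with its standard error (y axis) in 4 comparisons (x axis); colours are probes, and filled points have an adjusted p under 0.05 over all probes. All 3 Tef probes are filled in the 3 comparisons of a single binge, and 1 of 3 for multiple binges (-0.83 against -0.18 and -0.19).

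The control diets of 10 days and 8 weeks differed in 0 of 6 members, where 1.54% of 15553 genes were called. By limma's unadjusted p, 0 of the 6 were under 0.05, against 15.5% of all genes, and their lowest was that of Bhlhe40 (0.275). Differences ran from -0.14 (Tef) to 0.32 (Bhlhe40), and diet length and scan cannot be told apart here. In Cy3 alone Dbp was 0.52 ± 0.14 higher in the 8-week arrays (adjusted p = 0.0351), where 4.15% of genes were called.

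The core clock was read beside its outputs, from a list of 19 symbols of which 17 were tested. After the single binge against pair-fed mice 2 rose and 2 fell, with a list median of 0.01 against 0.02 over all genes. The period gene Per3 fell by 0.82 ± 0.12 (adjusted p = 3.31e-05), and Nr1d1, which encodes the Nfil3 repressor REV-ERB alpha, fell by 1.21 ± 0.20 (adjusted p = 0.000151). Clock rose by 0.60 ± 0.12 (adjusted p = 0.00111) and the kinase gene Csnk1e by 0.53 ± 0.10 (adjusted p = 0.00105). Arntl, the partner of Clock, differed by -0.04 ± 0.12 (adjusted p = 0.866), and Per1 by 0.05 ± 0.15 (adjusted p = 0.888).

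Against ethanol alone 4 of 17 rose and 2 fell. Per3 fell by 0.73 ± 0.11, and Clock rose by 0.63 ± 0.11 and Csnk1e by 0.48 ± 0.10. Nr1d1 differed by -0.34 ± 0.19 and was not called (adjusted p = 0.257). It read 0.11, 0.30, 0.47 and 1.11 in pair-fed mice, -0.80, -0.72, -0.23, 0.29 and -0.42 on ethanol alone, and -0.44, -0.91, -0.57, -1.03 and -0.64 after the single binge. The ethanol and single-binge ranges of Nr1d1 thus overlapped where those of Dbp, Tef and Nfil3 did not, for Tef by its most intense probe alone. For ethanol alone 0 of 17 were called, with Nr1d1 at -0.87 ± 0.20 (adjusted p = 0.0726) and Per1 at -0.47 ± 0.15 (adjusted p = 0.325).

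In the 10-day comparison 2 of 17 rose and 3 fell. Ciart, a repressor of CLOCK and BMAL1, fell by 1.23 ± 0.22 (adjusted p = 0.000821), Per3 by 0.70 ± 0.14 and Nr1d1 by 0.84 ± 0.24, while Cry1 rose by 0.58 ± 0.13 and Clock by 0.56 ± 0.15. Ciart differed by -0.06 ± 0.18 after the single binge at 8 weeks, and the difference between the 2 binge effects was called for it (1.17 ± 0.28, adjusted p = 0.0189). Per3, Clock and Nr1d1 were called in the same direction in both comparisons of a binge with its own pair-fed group, which share no arrays.

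**Figure D5:**
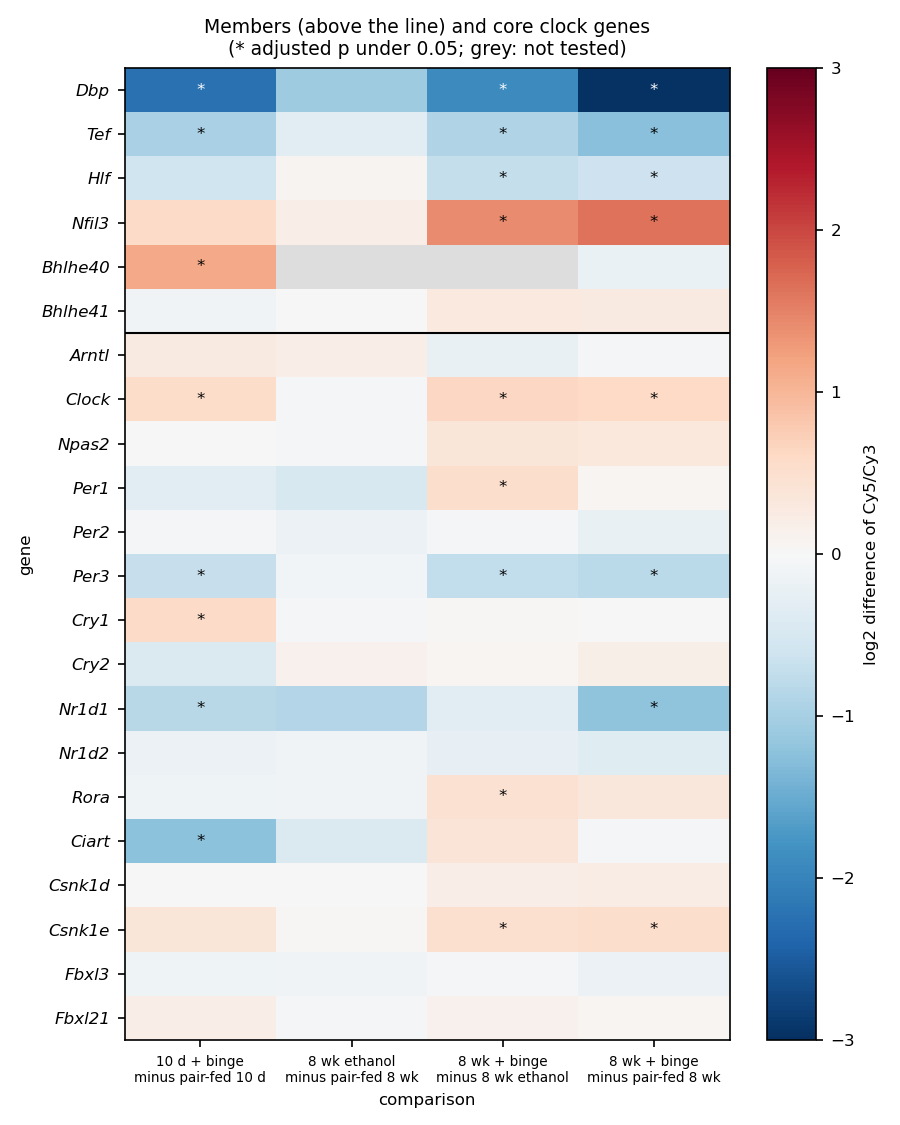
Log2 difference of Cy5/Cy3 (colour, blue lower and red higher, scale from -3 to 3) of the 6 members above the line and core clock genes below it, in 4 comparisons within scans 1 and 2; asterisks mark an adjusted p under 0.05 and grey cells were not tested. Dbp and Tef are lower in all 4 columns and called in 3, while the difference farthest from 0 among the core clock genes drawn is -1.23 (Ciart at 10 days).

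Other E-box outputs of the clock, 7 of 8 listed genes tested, gave 1 higher and 3 lower after the single binge against pair-fed. Noct, which encodes the rhythmic liver protein nocturnin, fell by 1.60 ± 0.17 (adjusted p = 1.39e-06), Nampt by 0.70 ± 0.16 and Wee1 by 0.38 ± 0.10, while Nedd4l rose by 0.62 ± 0.13. Noct also fell for ethanol alone, by 0.88 ± 0.17 (adjusted p = 0.0323), and in the 10-day comparison, by 1.14 ± 0.21 (adjusted p = 0.00139). At 10 days it was the 1 gene of 7 that fell, and 3 rose, Klf10 by 1.71 ± 0.44, Nedd4l by 0.56 ± 0.15 and Tspan4 by 0.56 ± 0.16.

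Genes of detoxification listed as PAR bZIP targets changed in both directions. Of 18 listed, 15 were tested for the single binge against pair-fed, and 3 rose and 3 fell (median 0.15). Cyp7a1, the rate-limiting enzyme of bile acid synthesis, fell by 2.52 ± 0.46 (adjusted p = 0.00052), Alas1, which starts heme synthesis, by 1.17 ± 0.32 (adjusted p = 0.0151) and the esterase gene Ces3b by 1.17 ± 0.32. Cyp2b10, a cytochrome gene switched on through CAR, rose by 3.76 ± 0.50 (adjusted p = 3.93e-05). Against ethanol alone 2 of 14 rose and 6 fell, with Alas1 lower by -1.60 ± 0.24, Gsta3 by -1.20 ± 0.23 and Nr1i3, which encodes CAR, by -0.97 ± 0.20, and Cyp2b10 higher by 2.72 ± 0.48. In the 10-day comparison 3 of 13 rose and 1 fell, with Cyp2b10 higher by 3.99 ± 0.69 and Alas1 lower by -1.50 ± 0.32. For ethanol alone Cyp2c29 rose (1.68 ± 0.30, adjusted p = 0.0253) and 0 of 14 fell.

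A second route from these factors runs through acyl-CoA thioesterases to PPAR-alpha, with 9 of 10 listed genes tested. Ppara fell in each comparison of a single binge: by 1.08 ± 0.19 against pair-fed (adjusted p = 0.000334), by 1.06 ± 0.18 against ethanol alone (adjusted p = 0.000194) and by 0.89 ± 0.23 at 10 days (adjusted p = 0.0184). Against pair-fed at 8 weeks 2 of 9 rose, Pdk4 by 1.40 ± 0.36 and the hormone gene Fgf21 by 1.10 ± 0.29, and only Ppara fell. Against ethanol alone 2 rose and 3 fell, among them the thioesterase genes Acot3 (-1.80 ± 0.44) and Acot4 (-0.85 ± 0.21). At 10 days 1 rose and 4 fell, among them the omega-hydroxylase gene Cyp4a14 (-4.62 ± 0.72), Acot1 (-1.96 ± 0.33), also a thioesterase gene, and Acot3 (-2.36 ± 0.57). The binge effects at 8 weeks and 10 days differed for Cyp4a14 (5.29 ± 0.96, adjusted p = 0.00225) and Acot1 (1.74 ± 0.43, adjusted p = 0.0256).

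Markers of the cell types of liver were read beside these changes, and a lower level per cell cannot be told apart from fewer cells of a type in bulk RNA. The 6 measured hepatocyte markers were well above background on every array. Their mean log2 ratio ran from -0.14 to 0.28 in pair-fed mice of 8 weeks, from -0.17 to 0.20 on ethanol alone and from 0.08 to 0.67 after the single binge, with 2 of 6 called higher against pair-fed (Fgb and Ahsg) and 0 lower. In the 10-day groups it ran from 0.04 to 0.23 in pair-fed mice and from 0.68 to 1.08 after the binge, with 3 of 6 higher. Endothelial markers ran there from -0.70 to -0.41 and from -0.21 to 0.01 (2 of 5 higher), and stellate markers from -0.43 to -0.15 and from -0.01 to 0.10 (2 of 6 higher), so neither overlapped. At 8 weeks, neutrophil markers ran from -0.34 to -0.15 in pair-fed mice and from -0.12 to 0.40 after the single binge, with 2 of 7 higher, S100a9 by 1.12 ± 0.20 and S100a8 by 0.61 ± 0.15. Endothelial markers ran from -0.43 to -0.17 and from -0.29 to 0.20, with 2 of 5 higher and 1 lower. T, NK and innate lymphoid markers ran from -0.23 to -0.06 and from -0.17 to 0.07, and B cell markers from 0.08 to 0.27 and from -0.02 to 0.55, with 0 called in either list. Macrophage markers (1 of 5 lower), stellate markers (1 of 6 lower) and cholangiocyte markers (0 of 5) overlapped between these groups. In the multiple-binge arrays neutrophil markers ran from -0.40 to -0.21, with 2 of 7 higher and 3 lower than in pair-fed mice. The part of these shifts in the members' differences was not tested.

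The genes whose profile over arrays was most like a member's were found by the smallest root mean square difference of centred log2 ratios, over at least 20 shared arrays and 14919 to 15092 genes. They describe likeness of pattern alone. For Dbp, whose own spread about its mean was 1.18, they were Apol7a (0.49), Mcm10 (0.49) and Tk1 (0.53), against a median of 1.21 over all genes. For Tef, with a spread of 0.52, they were Slc19a2 (0.19), Sirt3 (0.20) and 1600014C10Rik (0.22). For Nfil3, with a spread of 0.68, they were Lrrc8a (0.31), Mat2a (0.31) and St3gal1 (0.32). The multiple-binge arrays are among those over which likeness was measured.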

How the data were processed

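Agilent Feature Extraction 11.5.1.1 read the arrays and wrote median spot and background intensities for both channels, processed intensities and log10 ratios, per the file headers and the submitters' processing notes. The authors' deposited table of log2 values matched the processed intensities, liver over reference on the log2 scale, with a slope of 1 on every array. Its headers do not say how it was made. The deposited log10 ratio column was not used. The headers name the genome build mm8, so coordinates printed are those of the RefSeq table alone.

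Median intensities were background-corrected (limma 3.58.1 in R 4.3.3, normexp, offset 50) and loess-normalised within each array. Marked spots (1.34 to 7.64% per array) were left out, replicate spots averaged, and 36620 probes kept that cleared the background limit of the liver channel on 3 or more arrays. The brightest probe stood for a gene. Of 41174 probes 24387 had 1 symbol. The 6 group means were fitted over all 24 arrays with lmFit and eBayes, in 9 comparisons, with Benjamini-Hochberg adjustment over all genes tested with at least 2 arrays per group. Channels alone were taken after Aquantile. The number of arrays limits the precision. Alternatives changed background correction, normalization, values, channel, filter, probe rule, marked spots, slide and replicate blocks, and left out single arrays. The fit was tested on simulated data. All 6 members were named throughout, and from each list up to 4 called genes with the lowest adjusted p and up to 2 others. Members and gene lists were chosen with earlier results of these data known. Some listed genes are counted with their list and not reported singly here.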

Additional observations from a re-analysis of the deposited data

Results flagged for a closer look

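Hlf in replicate 3 of the 8-week ethanol group read 0.51 in log2 Cy5/Cy3, while the other 3 arrays that measured it lay between 0.27 and 0.29, and the gap was 0.932 of the group's range. It was 1 of 19 sets of values tested for an array far from the others, and chance alone gives about 1 in 20. Hlf differed between ethanol alone and pair-fed by 0.08 with this array (adjusted p = 0.987) and by 0.02 without it (adjusted p = 0.997), and limma called neither.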

How the results depend on the processing

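Dbp and Tef kept their direction and call in both comparisons of the single binge and in the 10-day comparison under every alternative and every left-out array that could be fitted, and Nfil3 did so in both comparisons of the single binge. Dbp against pair-fed at 8 weeks ran from -3.17 to -2.83 over the alternatives and from -3.16 to -2.85 over left-out arrays, Tef from -1.47 to -0.96 and from -1.35 to -1.17, and Nfil3 from 1.27 to 1.75 and from 1.47 to 1.81. Leaving out the multiple-binge arrays, chosen after seeing the data, changed no member's call in the 6 comparisons without them. Slide could not be fitted as a fixed block for the multiple-binge comparisons or between the control diets.

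Results of the multiple-binge group, Bhlhe40 and Hlf changed most, and where no value shows the cause it was not tested. With the mean of a gene's probes 1 of 6 members was called for multiple binges against pair-fed, where 3029 genes were. Against ethanol alone it called 0 of 5, and 3660 genes. With Cy5 alone 4 of 5 were called for multiple binges against ethanol alone, where 52.6% of 15475 genes were. For the difference of the 2 binge effects 1 of 6 members was called, Bhlhe40, with the deposited values (-1.64, with 490 genes called). The same held with marked spots kept (-1.57, with 675 genes called). Over left-out arrays 0 to 1 members were called, and 311 to 648 genes. The replicate numbers of the labels were not taken to pair the samples, and correlations of same-numbered arrays did not settle this. They were not all above 0.1 in any comparison. For ethanol against pair-fed at 8 weeks replicates 2, 3 and 4 gave 0.139, 0.111 and 0.211. Those arrays also shared a slide, so pairing and slide cannot be told apart there. With the replicate block 3 of 6 members were called for the single binge against pair-fed, where 2548 genes were. It called 2 of 5 for multiple binges against ethanol alone (4287 genes) and 1 of 6 for the difference of the binge effects (490 genes). The Bhlhe40 rise at 10 days was not called with processed signals (1.14), median centring (1.10) or the deposited values (1.14), and Hlf against pair-fed not with processed signals (-0.59), median centring (-0.61) or the deposited values (-0.59). Median centring also ended the calls of Hlf for the single binge against ethanol alone (-0.65), Nfil3 for multiple binges against pair-fed (0.51) and Tef for multiple against single binges (0.17).

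Signs that turned were of differences that were not called, other than Tef in Cy5 alone for multiple binges (0.53 against pair-fed, 0.84 against ethanol). Against ethanol alone Dbp for multiple binges turned to -0.04 with processed signals and with deposited values, -0.20 with median centring and -1.79 in Cy5 alone, and Bhlhe41 to -0.08 and -0.70 with the last 2. Against pair-fed, Bhlhe41 turned to -0.11 with median centring and -0.81 in Cy5 alone, and Bhlhe40 to -0.16 in Cy5 alone and -0.02 with marked spots kept. Against the single binge, Bhlhe41 turned to 0.06 with processed signals and with deposited values, and Hlf to -0.12 with median centring, -0.05 in Cy5 alone and -0.01 with the replicate block. Bhlhe41 kept its sign there and was called with median centring (-0.42, adjusted p = 0.0369) and in Cy5 alone (-1.17, adjusted p = 0.000183). Between control diets median centring gave Dbp 0.11, Tef 0.05, Hlf 0.13 and Nfil3 0.10, Cy5 alone Dbp 0.40 and Bhlhe41 -0.04, and the mean of probes Bhlhe41 -0.02. For the difference of binge effects Hlf turned to 0.04 with processed signals and with deposited values, 0.17 with slide as a block and 0.05 with the replicate block, which also gave Bhlhe41 0.01 for ethanol alone. Over left-out arrays the ranges that crossed 0 were those of Bhlhe41 for multiple binges (-0.03 to 0.25) and ethanol alone (-0.15 to 0.13) against pair-fed, at 10 days (-0.25 to 0.08) and between control diets (-0.10 to 0.24), Nfil3 between control diets (-0.27 to 0.07), Hlf for the difference of binge effects (-0.19 to 0.16) and multiple against single binges (-0.01 to 0.35), and Dbp for multiple binges against ethanol alone (-0.17 to 0.18).

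Over all genes, calls fell from 1131 to 367 at 10 days and from 2555 to 1218 for the single binge against pair-fed with median centring, and to 428 and 1411 in Cy5 alone. Cy5 alone called 7714 genes for multiple binges against pair-fed, against 3157 by the ratio. Slide as a block gave 660 at 10 days, and the replicate block 684 between control diets against 239.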

Other observations

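Genes that report feeding and hormonal timing cues, from a list of 17 symbols, moved in both directions after the single binge. Against ethanol alone 4 of 13 tested genes rose and 4 fell. The glucocorticoid-responsive gene Fkbp5 rose by 1.97 ± 0.16 (adjusted p = 7.88e-08) and Klf9, another such gene, by 0.77 ± 0.12 (adjusted p = 0.000126), while Tsc22d3, also glucocorticoid-responsive, fell by 0.60 ± 0.18 (adjusted p = 0.0226). The lipogenic regulator gene Srebf1 fell by 2.33 ± 0.32 (adjusted p = 1.99e-05), and G6pc, which encodes the last enzyme of glucose release, fell by 1.98 ± 0.41 (adjusted p = 0.0017). In the 10-day comparison 2 of 14 fell, the cold-inducible gene Cirbp by 0.87 ± 0.17 and Ppargc1a by 0.69 ± 0.18. The binge effects at 8 weeks and 10 days differed for Srebf1 (-3.37 ± 0.53, adjusted p = 0.000388), Cirbp (1.15 ± 0.22, adjusted p = 0.00283) and Klf9 (0.98 ± 0.18, adjusted p = 0.00302). For 8 weeks of ethanol without a binge limma called 0 of 13. How these genes bear on Dbp, Tef and Nfil3 was not tested.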
